A study of Mus musculus with 768 samples.

Results

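The plasminogen system and its serpins were followed through 7 genes, *Plat*, *Plau*, *Plaur*, *Serpine2*, *Serpina3n*, *Serpinf1* and *Vtn*, taken by name from the 24490 endogenous genes of the tables. They were read by single-cell RNA sequencing (Smart-seq2, 1 sorted cell per well and no molecular identifiers) in 768 wells from the mammary tumors of 2 mice of strain FVB/N-Tg(MMTVPyVT)634Mul/J, aged 14 weeks, in which the MMTV promoter drives the polyoma middle T oncogene mainly in mammary epithelium. Live cells without EpCAM, CD45, CD31 or NG2 on their surface had been sorted, a gate set to leave cancer-associated fibroblasts (CAFs) by removing epithelial, immune and endothelial cells and pericytes. Both tumors belonged to 1 group with no treatment, and each was sorted into a plate of its own. Replication is therefore by tumor (n = 2) and not by well, and tumor and plate cannot be told apart.

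Of the 768 wells, 727 held at least 10000 endogenous reads, 373 of tumor 1 and 354 of tumor 2. A well was called vascular when *Rgs5*, a gene of mural cells, stood at a log2(RPKM + 1) of at least 6 and at least 2 above *Dcn*, and matrix when *Dcn*, the proteoglycan decorin, did so over *Rgs5*. This gave 502 vascular wells (262 and 240 in tumors 1 and 2), 170 matrix wells (86 and 84) and 55 unclassed wells (25 and 30). None of the 7 genes entered the rule. Each class had a panel of 9 markers. With the gene that set the class left out, the other 8 markers of the own class averaged higher than the 8 of the opposite class in 502 of 502 vascular and 164 of 170 matrix wells. The summed mean RPKM of 4 endothelial markers was at most 0.232 in either class, and of these 4 at least 2 had no read in each class and tumor. Matrix wells were read more deeply, with medians of 275379 and 232394 reads in tumors 1 and 2 against 203068 and 191482 in vascular wells. The ERCC spike-ins took a median of 6.33% and 6.22% of the reads of matrix wells but 14.3% and 12.3% of those of vascular wells. Summed epithelial markers stood at 3.28 and 35.4 RPKM in vascular and 17.8 and 21.8 RPKM in matrix wells, and summed cycling markers at 40.2 and 47.6 RPKM against 14.5 and 5.35 RPKM. Summed developmental markers (*Scrg1*, *Sox10*, *Mia* and *Trf*) stood at 2.94 and 67.2 RPKM in vascular and 151 and 84.5 RPKM in matrix wells, with at least 1 of the 4 read in 19.1% and 43.3% against 44.2% and 56.0% of wells, and their part in the results was not tested. Of a panel of 5 immune markers, among them *Ptprc*, *Csf1r* and *Cd68*, at least 1 was read in 20.9% and 10.7% of matrix wells but in 4.58% and 3.33% of vascular wells. Their summed mean was 3.47 and 5.30 RPKM in matrix and 1.62 and 0.364 RPKM in vascular wells, and *Ptprc*, which encodes the CD45 of the gate, was at 0 in matrix wells. Leaving out wells with a read of *Epcam*, *Pecam1* or *Ptprc*, cycling wells, or wells with any immune marker (a choice made after seeing the data) ended none of the calls on the 7 genes given here. Without the wells with an immune marker the log2 fold changes, matrix over vascular, were 2.65 for *Plaur*, 4.05 for *Serpina3n*, 2.76 for *Plau* and 4.24 for *Serpinf1*.

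Plasminogen circulates as an inactive precursor and is cut to plasmin, a broad protease of fibrin and matrix, by tissue-type plasminogen activator (*Plat*) or by urokinase (*Plau*), which acts at the cell surface when held by its receptor (*Plaur*). Serpins are a family of proteins that mostly trap proteases in an irreversible complex. Protease nexin-1 (*Serpine2*) blocks thrombin and both activators, *Serpina3n* encodes a secreted inhibitor of the mouse antichymotrypsin cluster, and pigment epithelium-derived factor (*Serpinf1*) has the serpin fold but does not inhibit proteases and is known as a restraint on vessel growth. Vitronectin (*Vtn*) is an adhesive plasma and matrix protein that binds integrins and the urokinase receptor.

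The genes lie apart in the genome (RefSeq spans on GRCm38, the assembly of mm10). *Serpine2* lies on chromosome 1 from 79794317 to 79858665, *Plaur* on chromosome 7 from 24460937 to 24475970, *Plat* on chromosome 8 from 22757722 to 22782848, *Plau* on chromosome 14 from 20836662 to 20843388, and *Serpina3n* on chromosome 12 from 104406646 to 104414334. *Serpinf1* (75410029 to 75422623) and *Vtn* (78499120 to 78502325) share chromosome 11. No other RefSeq or GENCODE gene overlapped any of the 7.

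Upstream sequence was at hand for 5 of the 7 genes from RefSeq (GRCm38.p6), all but *Plat* and *Plau*. The stretches below are shown for a gene read in every well (*Serpine2*), a gene of vascular wells (*Vtn*) and a pair higher in matrix wells (*Serpinf1* and *Plaur*), so that the letters before genes with unlike patterns can be set side by side. Each is 120 bases, 5′ to 3′ on the strand of the gene, and ends before the first GENCODE exon of the gene within the window, and capitals mark matches to the motifs searched.
Serpine2, chr1:79858697-79858816, minus strand: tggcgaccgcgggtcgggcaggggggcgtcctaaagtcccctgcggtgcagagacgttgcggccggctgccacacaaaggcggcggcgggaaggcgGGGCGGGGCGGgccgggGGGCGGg
Vtn, chr11:78498971-78499090, plus strand: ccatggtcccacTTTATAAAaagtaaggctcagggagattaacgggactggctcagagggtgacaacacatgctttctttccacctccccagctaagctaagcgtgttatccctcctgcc
Serpinf1, chr11:75422702-75422821, minus strand: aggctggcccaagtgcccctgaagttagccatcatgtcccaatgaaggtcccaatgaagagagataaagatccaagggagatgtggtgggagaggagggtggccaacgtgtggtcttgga
Plaur, chr7:24462363-24462482, plus strand: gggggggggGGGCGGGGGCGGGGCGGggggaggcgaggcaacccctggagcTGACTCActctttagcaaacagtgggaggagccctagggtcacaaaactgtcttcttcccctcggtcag

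Motifs were sought on both strands in the 250 bases before the start site, and their frequency was taken over 32851 promoters of that length. The GC box, GGGCGG, was held by 32.7% of them. The TATA box, written TATAAA, was held by 12.4%. The AP-1 site, searched as TGACTCA, was held by 4.46%, and 7.02% held the STAT site TTCNNNGAA. *Serpine2* held 6 GC boxes, of which 3 fall in the printed stretch, and its 250 bases were 78.8% G or C, above 98.3% of all promoters (median 52.4%). *Plaur* held 3 GC boxes, which abut or overlap each other, and an AP-1 site whose first base lay 69 bases before the start. The *Plaur* stretch lies inside the RefSeq gene model, which opens further upstream. *Vtn* held a TATA box on each strand, overlapping each other at 137 and 135 bases before the start. *Serpinf1* (51.6% G or C) and *Serpina3n* (46.4%, not printed because its RefSeq model opens within the stretch) held none of the 4 motifs. These matches describe letters and were not tied to binding here.

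Vascular and matrix wells were compared on counts summed per class and tumor, in 4 libraries, with edgeR's quasi-likelihood test. Of the 7 genes, 4 were higher in matrix wells (*Serpinf1*, *Serpina3n*, *Plaur* and *Plau*), 1 was higher in vascular wells (*Vtn*), and *Serpine2* and *Plat* did not pass an adjusted p of 0.05. Among all 11584 genes tested, 9.75% were called higher in matrix and 6.81% higher in vascular wells. With the tumor as a block, which pairs the libraries of an animal, the shares were 11.1% and 7.67%, and the calls on the 7 genes were those without it. Scaling by the ERCC reads in place of the endogenous reads moved the median log2 fold change of all genes from -0.03 to 0.61, and the share of called genes that were higher in matrix wells from 58.9% to 86.3%. Under that scaling the difference of *Serpine2* changed sign and *Plat* passed the threshold, as given with each gene. At the stricter adjusted p of 0.001 used in the study, *Serpinf1* and *Vtn* remained called.

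**Figure D1:**
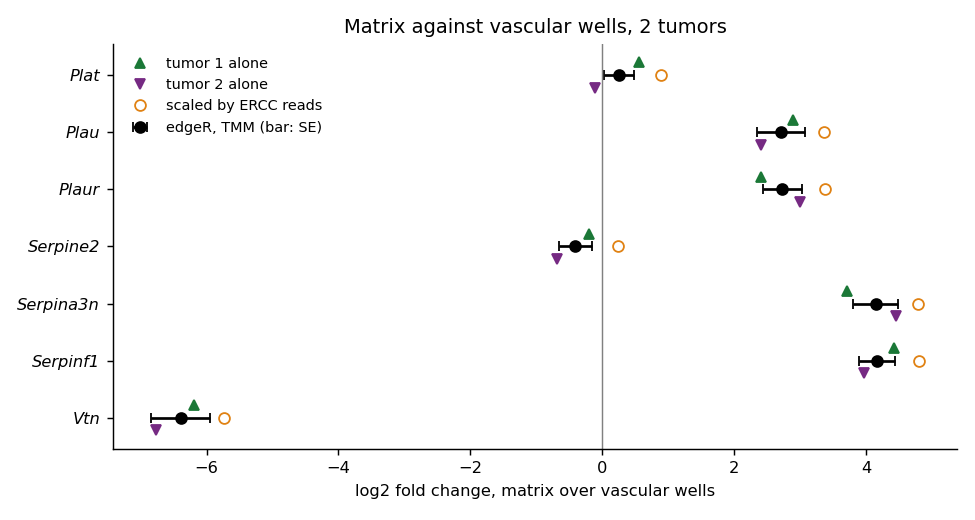
Log2 fold change (x axis, matrix over vascular wells) of the 7 genes (y axis): filled points are the edgeR estimate over 2 tumors with its standard error, triangles the value in each tumor alone, and open circles the estimate scaled by ERCC reads. *Vtn* lies far to the left and *Serpinf1* and *Serpina3n* near 4, while *Plat* has tumors on both sides of 0 and *Serpine2* crosses 0 under ERCC scaling.

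*Plat*, the activator that works best on fibrin, was abundant in both classes. Its mean was 335 and 368 RPKM in the vascular wells of tumors 1 and 2 and 448 and 289 RPKM in the matrix wells. The ranges of the tumors overlapped, and the order of the classes was opposite in the tumors. The log2 fold change, matrix over vascular, was 0.25 ± 0.23 (SE, n = 2 tumors; edgeR adjusted p = 0.539), with 0.56 in tumor 1 and -0.11 in tumor 2. Scaled by ERCC reads it was 0.90 with an edgeR adjusted p of 0.0364, which is past the threshold, a move about as large as that of the median of all genes. A read of *Plat* was found in 97.3% and 97.1% of vascular wells and in 97.7% and 89.3% of matrix wells.

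*Plau*, urokinase, was far lower than *Plat* per length in both classes. Vascular wells averaged 14.0 and 9.45 RPKM and matrix wells 91.9 and 57.5 RPKM. Both matrix values lay above both vascular ones. On the log2 scale the matrix wells were higher by 2.71 ± 0.37 (SE, n = 2 tumors; edgeR adjusted p = 0.00727), with 2.89 and 2.41 in the single tumors. Its level varied widely among matrix wells, with medians of 60.5 and 16.5 RPKM, 0 in the lowest wells and 405 and 779 RPKM in the highest. In vascular wells *Plau* had a median of 0 and a highest well of 278 and 262 RPKM.

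*Plaur*, the receptor that holds urokinase at the membrane, was the least abundant of the 7 genes in vascular wells. It averaged 6.94 and 7.57 RPKM in vascular and 30.9 and 41.0 RPKM in matrix wells, and these means did not overlap. Single wells did, with the highest vascular well at 315 and 440 RPKM and the highest matrix well at 247 and 427 RPKM. The estimate was a log2 fold change of 2.73 ± 0.30 (SE, n = 2 tumors; edgeR adjusted p = 0.00333). Most wells of the vascular class had no read of it, and it was read in 9.16% and 10.4% of them against 54.7% and 54.8% of matrix wells. Reads of the activator and its receptor in the same matrix well were found in 38 of 86 and 36 of 84 wells, and *Plau* without *Plaur* in 29 and 27. *Plaur* without *Plau* was found in 9 and 10, and neither in 10 and 11. The Spearman correlation of their levels over matrix wells was 0.08 and 0.13, and whether they were read together more often than unlinked genes was not tested. In vascular wells both were read in 13 of 262 and 15 of 240 wells.

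*Serpine2* was the most abundant of the 7 genes in vascular wells and was read in all 727 wells, the unclassed ones included. In matrix wells it was the most abundant in tumor 1, but in tumor 2 *Serpinf1* stood above it, at 2035 RPKM. Vascular wells averaged 3379 and 3177 RPKM, and matrix wells 2655 and 1696 RPKM. Both vascular values lay above both matrix values, but the matrix tumors were far apart. The log2 fold change was -0.41 ± 0.25 (SE, n = 2 tumors; edgeR adjusted p = 0.356) and 0.24 when scaled by ERCC reads (edgeR adjusted p = 0.445), so the sign depended on the scaling and neither value passed the test. Single wells differed more within the matrix class than within the vascular class. In tumor 2 the 10th and 90th percentiles of the matrix wells were 55.8 and 3928 RPKM and those of the vascular wells 841 and 5785 RPKM. In tumor 1 they were 333 and 5435 RPKM in matrix and 976 and 6761 RPKM in vascular wells. *Serpine2* alone took 0.845% and 0.775% of all endogenous reads of the vascular wells.

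*Serpina3n* was higher in matrix wells, at 289 and 421 RPKM against 21.1 and 25.1 RPKM in vascular wells. These means did not overlap, but single wells did, with the highest vascular well at 1007 and 483 RPKM. The difference came to 4.14 ± 0.34 on the log2 scale (SE, n = 2 tumors; edgeR adjusted p = 0.00147). It was not even among matrix wells, where 68.6% and 65.5% reached a log2(RPKM + 1) of 6 and 10 of 86 and 17 of 84 had no read. The gene has near-identical neighbours in the mouse antichymotrypsin cluster, and with single-end reads of 43 bases the assignment among copies is uncertain. Of 10 other *Serpina3* genes 9 had reads, together 34114 against 40518 of *Serpina3n* itself. With the reads of all these genes summed, an analysis chosen after seeing the data, the log2 fold change was 3.72 ± 0.24 (SE, n = 2 tumors; edgeR adjusted p = 0.000701).

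*Serpinf1* was high in nearly every matrix well. It averaged 1825 and 2035 RPKM there, with medians of 1742 and 1912 RPKM, and the lowest matrix well still held 349 RPKM in tumor 1 and 47.4 RPKM in tumor 2. Vascular wells averaged 87.7 and 145 RPKM, with medians of 0 and 2.25 RPKM. The log2 fold change was 4.17 ± 0.27 (SE, n = 2 tumors; edgeR adjusted p = 0.000704). In matrix wells its mean matched that of *Serpine2* within the spread of the tumors.

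*Vtn* was the member of vascular wells. It averaged 257 and 174 RPKM there and 4.36 and 1.54 RPKM in matrix wells, a fall by 6.39 on the log2 scale from vascular to matrix wells (SE 0.45, n = 2 tumors; edgeR adjusted p = 0.00088). The class means were apart in both tumors by a wide margin, and 188 of 262 and 141 of 240 vascular wells reached a log2(RPKM + 1) of 6. Most of the *Vtn* of matrix wells in tumor 1 came from a well at 338.7 RPKM, which also held *Rgs5* and *Dcn* both at a log2(RPKM + 1) of at least 6. Without that well the mean of the matrix wells of tumor 1 was 0.423 RPKM. Leaving out all wells with both markers gave a log2 fold change of -8.34, and forming the classes from the other markers of the panels gave -9.12, both called by edgeR (adjusted p = 0.000426 and 0.000167). The reported value of -6.39 is nearer to 0 than either. Other alternatives were nearer still, with -5.74 when scaled by ERCC reads and -6.00 with each well scaled to the same total. *Vtn* was also not in every vascular well, with 32 of 262 and 60 of 240 lacking a read.

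**Figure D2:**
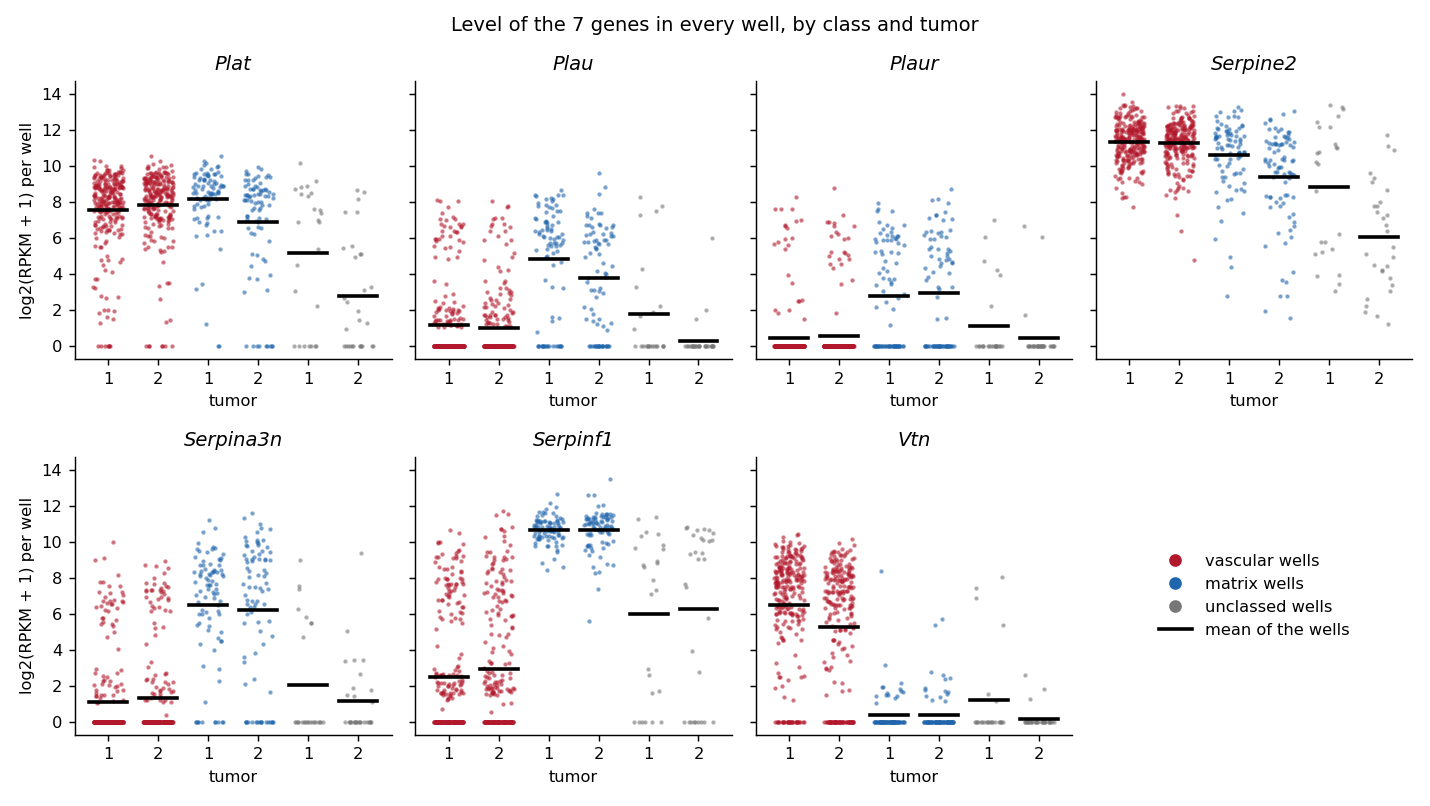
Each point is 1 well, with its log2(RPKM + 1) on the y axis and its class (color) and tumor (x axis) for each of the 7 genes, and black lines are the means over wells. *Serpine2* and *Plat* fill both classes, *Serpinf1* forms a tight band in matrix wells and 3 layers in vascular wells (no read, a low layer and a high layer), and *Vtn* is close to absent from matrix wells.

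The order of the 7 levels was read from the mean RPKM per class. In vascular wells it ran from *Serpine2* (3278 ± 143 RPKM, SD over 2 tumors) over *Plat* (351 ± 23.4), *Vtn* (216 ± 58.6), *Serpinf1* (117 ± 40.8), *Serpina3n* (23.1 ± 2.80) and *Plau* (11.7 ± 3.23) to *Plaur* (7.25 ± 0.442), and no neighbours in this order overlapped between tumors. In matrix wells the order was *Serpine2* (2175 ± 678), *Serpinf1* (1930 ± 149), *Plat* (369 ± 112), *Serpina3n* (355 ± 93.3), *Plau* (74.7 ± 24.3), *Plaur* (35.9 ± 7.11) and *Vtn* (2.95 ± 1.99). There *Serpine2* and *Serpinf1* overlapped, as did *Plat* and *Serpina3n*, so the order within these pairs is not settled. In both classes the activator *Plat* stood above *Plau* and the inhibitor *Serpine2* above both.

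*Serpinf1* was read in 100% of matrix wells of both tumors (exact 95% binomial intervals from 95.8% and 95.7%) and in 48.5% (42.3% to 54.7%) and 55.4% (48.9% to 61.8%) of vascular wells. *Plau* was read in 77.9% and 75.0% of matrix and 33.2% and 30.4% of vascular wells, *Serpina3n* in 88.4% and 79.8% against 24.8% and 28.7%, and *Vtn* in 17.4% and 17.9% against 87.8% and 75.0%. The intervals cover counting error only. Since depth differed between the classes, wells were also thinned to 50000 reads, which left out 7 and 14 vascular and 5 and 4 matrix wells. *Vtn* was then read in 4.94% and 8.75% of matrix wells, and *Serpinf1* in 32.9% and 38.9% of vascular wells. No test was run on shares, which are given as descriptions.

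**Figure D3:**
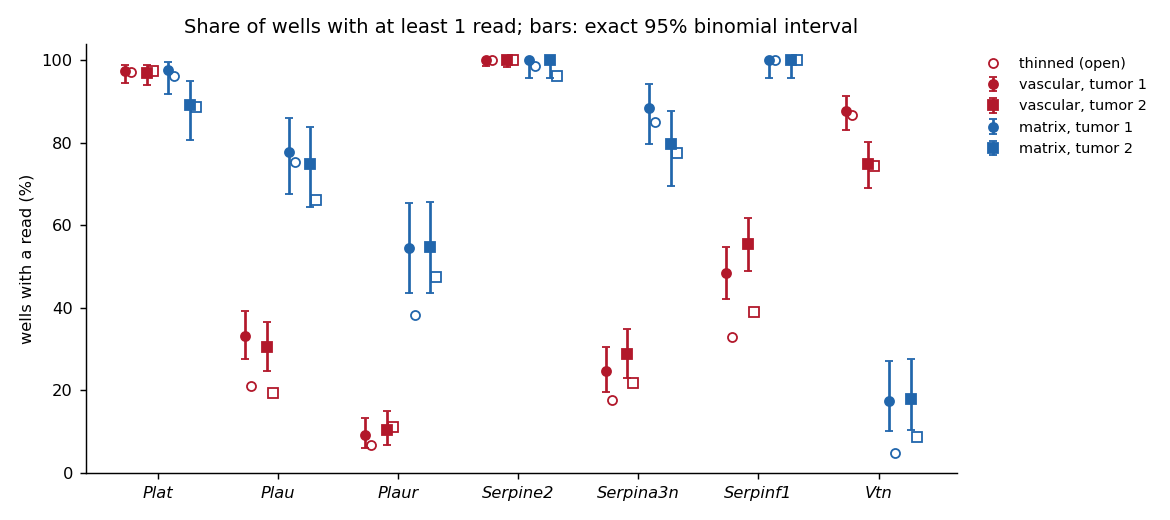
Percent of wells with at least 1 read (y axis) for each gene (x axis), by class (color) and tumor (circle, tumor 1; square, tumor 2), with exact 95% binomial intervals; open symbols are the same shares after thinning to 50000 reads. *Serpine2* is at 100% in both classes before thinning, and *Plaur* separates the classes at 54.7% against 9.16% in tumor 1.

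Markers of the opposite class were read in both classes, and whether such reads are background or expression was not tested. *Rgs5* was read in 94.2% and 85.7% of matrix wells and *Dcn* in 49.2% and 36.7% of vascular wells. The class rule itself keeps both low there. Values are therefore set beside those of the other 8 markers of each panel, which the rule can limit only through the wells it leaves out. The 8 matrix markers were read in 12.6% to 42.7% of the vascular wells of tumor 1 and in 6.25% to 42.5% of those of tumor 2. The shares of *Serpina3n*, *Plau* and *Plaur* in vascular wells lay within or below these ranges. *Serpinf1*, at 48.5% and 55.4%, lay above them, and after thinning its 32.9% and 38.9% stood above the highest of the 8 markers, at 24.3% (*Fbln1*) and 24.8% (*Fbln2*). The 8 vascular markers were read in 15.1% to 73.3% and 13.1% to 61.9% of matrix wells, and in up to 50.6% and 45% after thinning (*Mcam*), which is more than *Serpinf1* in vascular wells. *Vtn*, read in 17.4% and 17.9% of matrix wells, lay near the low end of these ranges. By level all 4 genes lay above the matrix markers. Over the 8 matrix markers, the mean in vascular wells was 0.299% to 1.64% of that in matrix wells in tumor 1 and 0.162% to 4.02% in tumor 2. *Serpinf1* stood at 4.81% and 7.15%, *Serpina3n* at 7.32% and 5.96%, *Plau* at 15.3% and 16.5% and *Plaur* at 22.5% and 18.5%, each above all 8 markers in both tumors. The study had named all 8 for its matrix CAFs in these same cells, so low levels elsewhere were part of their choice. A gene not chosen in that way can lie above them without being unusual. *Vtn* in matrix wells, at 1.69% and 0.885% of its vascular mean, lay inside the span of the 8 vascular markers, which ran from 0.279% to 6.67% in tumor 1 and from 0.222% to 7.13% in tumor 2.

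The *Serpinf1* of vascular wells was carried by a part of them. A log2(RPKM + 1) of 6 or more was reached in 62 of 262 wells of tumor 1 (23.7%) and 60 of 240 of tumor 2 (25.0%), against at most 8 wells of tumor 1 (*Dcn*) and 21 of tumor 2 (*Fbln2*) for any of the 9 matrix markers. The rule of the classes limits *Dcn* in vascular wells directly. It may also lower markers that run with *Dcn*, through the wells it leaves out, and the size of this was not tested. In the 133 and 152 vascular wells with no read of *Dcn* at all, *Serpinf1* still averaged 73.5 and 144 RPKM and was read in 48.1% and 53.9% of wells. Against these wells, chosen after seeing the data, the log2 fold change to the matrix wells was 4.42 ± 0.41 (SE, n = 2 tumors; edgeR adjusted p = 0.00199). *Serpina3n* passed the same level in 26 and 32 vascular wells and *Plau* in 22 and 13.

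**Figure D4:**
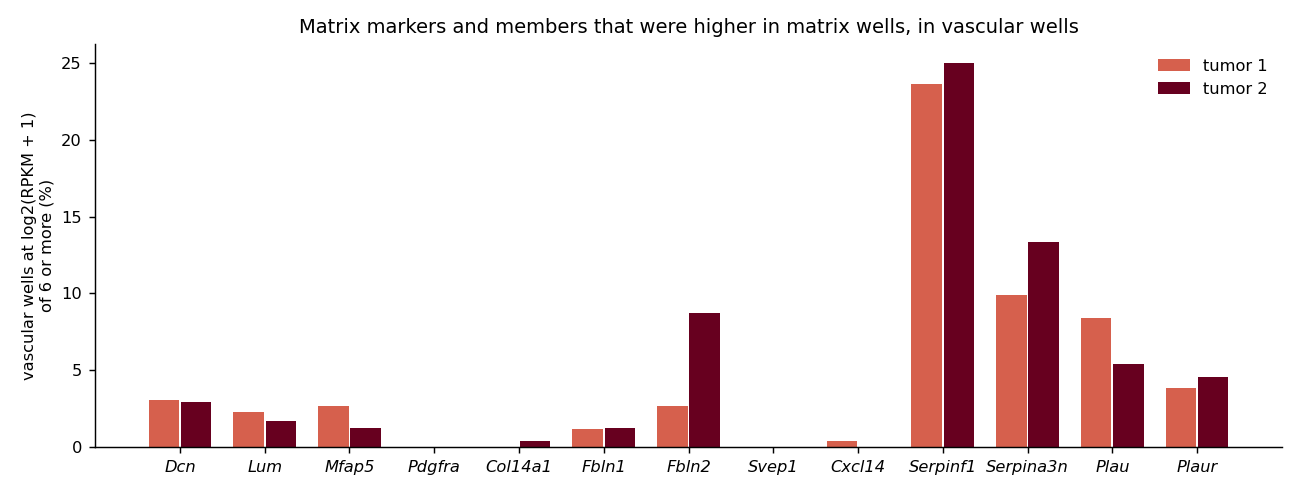
Percent of vascular wells (y axis) with a log2(RPKM + 1) of at least 6, for 9 markers of matrix wells and the 4 genes higher in matrix wells (x axis), by tumor (bar shade). *Serpinf1* reaches 23.7% and 25.0% while the markers stay at 8.75% (*Fbln2*, tumor 2) or less. The study had named these markers for its matrix CAFs in the same cells, so low levels elsewhere were part of their choice.

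Within vascular wells *Serpinf1* and *Vtn* ran against each other. The Spearman correlation of their levels over wells was -0.27 in tumor 1 (262 wells) and -0.43 in tumor 2 (240 wells), the lowest of the 21 pairs of the 7 genes in each tumor. *Plau* and *Vtn* stood at -0.22 and -0.21. In counts, 21 of 262 and 46 of 240 vascular wells had a read of *Serpinf1* but none of *Vtn*, and 106 and 87 had both. In matrix wells the pair of *Serpine2* and *Plau*, an activator and an inhibitor of it, had correlations of 0.41 and 0.40 (86 and 84 wells). *Plaur* and *Serpina3n* had 0.20 and 0.42, and *Plat* and *Plaur* 0.25 and 0.36. Most other pairs were weak, with medians over the 21 pairs from 0.01 to 0.14 across the classes and tumors. Wells of a tumor share a plate and differ in depth, sparse counts hold correlations near 0, and these values are descriptions with no test.

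The genes most like each member, over all kept wells and among 7898 genes read in at least 20% of them, followed the classes for those that differed. The measure was the Spearman correlation within each tumor, averaged over the 2 tumors. *Vtn* was nearest to *Rgs5* (0.74), *Cox4i2* (0.66) and *Gm13889* (0.65). *Serpinf1* was nearest to *Loxl1*, an enzyme that cross-links elastin, *Olfml3* and *Tpbg* (0.67 to 0.68), *Plaur* to *Lsp1*, *Loxl1* and *Fbln2* (0.45 each), and *Plau* to *Vgll3*, *Tpbg* and *Fzd1* (0.47 to 0.49). *Serpina3n* was nearest to its own neighbours *Serpina3m* (0.78) and *Serpina3f* (0.72), with which it may share reads, and then to *Lsp1* (0.59). *Serpine2* was nearest to *Sparcl1* (0.58) and *Igfbp7* (0.51). *Plat* had the weakest likeness, to *Pdgfrb*, a receptor of mural cells and fibroblasts, *Serpine2* and *Pla1a* (0.33 to 0.34). These values pool classes whose means differ, and within a class, averaged over the tumors, most were lower. *Vtn* and *Rgs5* had 0.52 in vascular and 0.18 in matrix wells, *Vtn* and *Cox4i2* 0.39 and 0.05, *Serpinf1* and *Loxl1* 0.30 and 0.22, and *Serpina3n* and *Lsp1* 0.13 and 0.29. *Serpine2* and *Sparcl1* had 0.59 and 0.36. Wells also differ in depth, whose part in these values was not tested.

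Other genes of the plasminogen system were taken from a list of 30, of which 23 could be tested, 12 were higher in matrix wells, 1 was higher in vascular wells and 10 did not pass, where 9.75% and 6.81% of all genes tested were called in these directions. The median log2 fold change of the 23 was 1.21, beside -0.03 over all genes tested. *Plg*, the precursor itself, had 0 reads over the 4 libraries. Were reads independent draws, this would allow a level of up to 0.0205 CPM (reads scaled to the library size). They are not independent molecules, so the true limit may be higher. All folds below are matrix over vascular with edgeR's quasi-likelihood test and Benjamini-Hochberg adjustment over all genes.

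Receptors and surface partners of the list were not uniform. *Mrc2*, the collagen receptor that sits beside the urokinase receptor, had a log2 fold change of 2.64 ± 0.17 (SE, n = 2 tumors; edgeR adjusted p = 0.000685). *Lrp1*, which takes up activator and inhibitor complexes, had 2.17 ± 0.21 (adjusted p = 0.00244). The annexin pair that docks plasminogen and *Plat* at the membrane was higher as well, *S100a10* by 2.07 ± 0.31 and *Anxa2* by 0.77 ± 0.16. So were *Itgb5*, a chain of a vitronectin-binding integrin (0.95 ± 0.15), *F3*, tissue factor (1.76 ± 0.39), and *F2r*, a thrombin receptor (1.21 ± 0.18). Those that did not pass included the plasminogen receptor *Plgrkt* (-0.21 ± 0.22), the lipoprotein receptor *Vldlr* (-0.62 ± 0.42), the thrombin-binding *Thbd* (0.35 ± 0.19) and the integrin chains *Itgb3* (0.58 ± 0.49), *Itgav* (0.60 ± 0.27) and *Itgb1* (-0.74 ± 0.20).

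Of the 5 metalloproteases in the list, a family that plasmin can help to activate, 4 were higher in matrix wells. *Mmp3* and *Mmp13* had the largest fold changes of the 23 genes. *Mmp3* had 1076 and 1420 CPM in matrix and 0.872 and 0.617 in vascular libraries, a log2 fold change of 10.70 ± 0.34 (SE, n = 2 tumors; edgeR adjusted p = 0.000155). *Mmp13* had 1179 and 1521 CPM against 0.705 and 11.1, with 7.84 ± 1.36 (adjusted p = 0.0162), and its vascular libraries were far apart. *Mmp2* was higher by 3.75 ± 0.18 and *Mmp14* by 1.40 ± 0.16 on the log2 scale. *Mmp9* did not pass, with a log2 fold change of 1.29 ± 0.72 (edgeR adjusted p = 0.311) and 2.88 and 0.52 in the single tumors.

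With the tumor as a block, *Itgav* also passed (edgeR adjusted p = 0.0473), as did *Itgb1*, whose log2 fold change of -0.74 is toward vascular wells (edgeR adjusted p = 0.0342). *Serpini1*, neuroserpin, an inhibitor of *Plat*, was the gene of the list higher in vascular wells, with 198 and 135 CPM against 15.2 and 20.4 and a log2 fold change of -3.23 ± 0.29 (SE, n = 2 tumors; edgeR adjusted p = 0.00183).

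Serpins outside the 7 numbered 60 in the tables, 4 of them also in the list above, and 24 had no read in the 4 libraries. Of 16 tested, 6 were higher in matrix wells, 4 higher in vascular wells and 6 did not pass, beside 9.75% and 6.81% of all genes tested. Their median log2 fold change was 1.24. The tumor block raised the number higher in matrix wells from 6 to 10, while the share of all genes called in that direction went from 9.75% to 11.1%. Among those gained were *Serpina3g* (adjusted p = 0.0393), *Serpinb9* (0.0104) and *Serpinh1*, a collagen chaperone (0.0394).

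The vascular side held *Serpini1* and 3 genes of the alpha-1-antitrypsin cluster, whose products inhibit elastase. *Serpina1b* had 560 and 359 CPM in vascular and 14.2 and 5.42 in matrix libraries, a log2 fold change of -5.54 ± 0.56 (SE, n = 2 tumors; edgeR adjusted p = 0.00261). *Serpina1d* had -5.75 ± 0.74 and *Serpina1e* -5.40 ± 0.55 at far fewer reads. The copies of this cluster are near-identical, so the reads may be split among them, and which copy was transcribed is uncertain. On the matrix side 4 were *Serpina3* copies, *Serpina3m* (4.33 ± 0.43), *Serpina3f* (3.43 ± 0.29), *Serpina3h* (3.30 ± 0.29) and *Serpina3i* (3.26 ± 0.35), which may share reads with *Serpina3n*. The other two were the intracellular inhibitors *Serpinb1a* (4.27 ± 0.50) and *Serpinb6a* (0.73 ± 0.17).

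Under ERCC scaling 15 partners and 9 other serpins were higher in matrix wells, with 1 and 4 higher in vascular wells, and 0 of the 13 and 10 called genes changed direction. All genes moved with that scaling, under which 28.7% of them were called higher in matrix and 4.57% higher in vascular wells. With each well scaled to the same total, where 9% and 6.2% of all genes were called, 11 of the 13 called partners and all 10 called serpins passed again. The calls lost were those of *Mmp13* (log2 fold change 5.83, edgeR adjusted p = 0.0715) and *F3* (1.70, edgeR adjusted p = 0.0696). *Serpinb6a* lost its call with other filters on genes, without cycling wells and without wells with an immune marker (edgeR adjusted p from 0.0512 to 0.0628), while its log2 fold change stayed at 0.66 to 0.75.

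**Figure D5:**
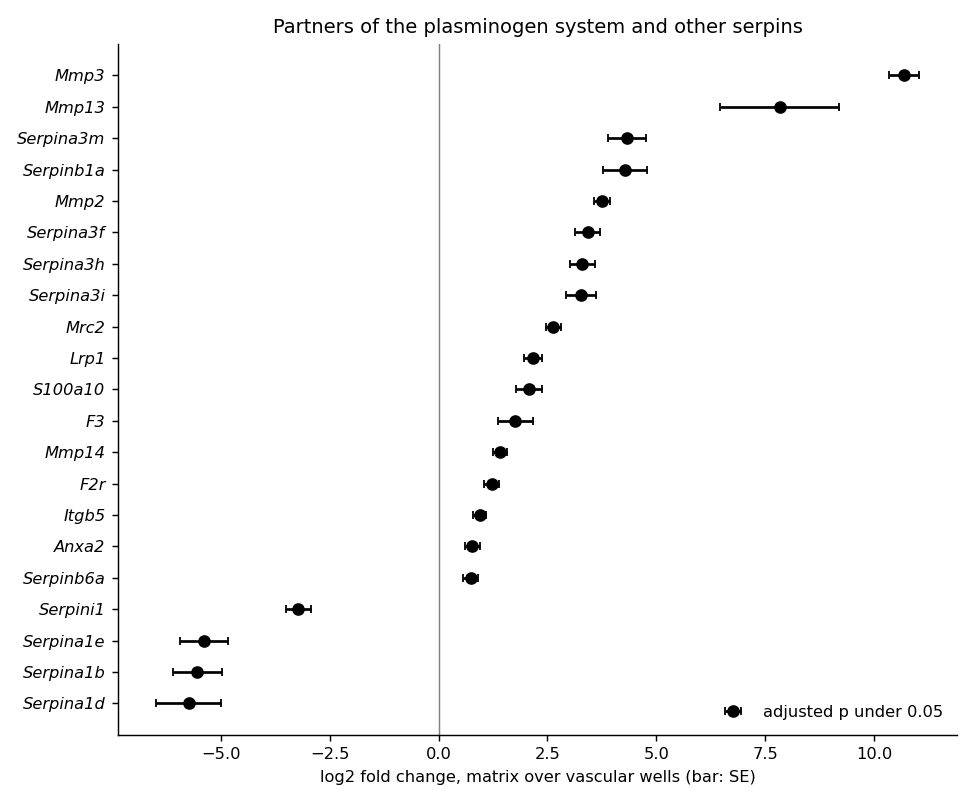
Log2 fold change (x axis, matrix over vascular wells, bars SE from the edgeR fit, n = 2 tumors) of partners and other serpins named in the text that passed an adjusted p of 0.05 in the fit with no block. The 3 *Serpina1* genes and *Serpini1* lie left of 0, and *Mmp3* and *Mmp13* farthest right.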

How the data were processed

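The authors aligned single-end reads of 43 bases to mm10 with STAR v2.3.0 and counted them on RefSeq genes, and they deposited whole-number counts, without normalization, and RPKM values made with rpkmforgenes. Whether strand was used is not given in the sources used here. Besides the 24490 genes there were 92 ERCC spike-ins, and 0 columns were left unused. Genes were tested on the counts and levels were described in RPKM. The 7 genes, the lists and the class rule were chosen with earlier results of these data known.

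Wells needed 10000 endogenous reads and ranged up to 838772 in tumor 1 and 1190516 in tumor 2, with medians of 219264 and 198180. Reads are not independent molecules, so intervals cover counting error only. No doublet caller was run, and leaving out the 17 wells with both markers high is an alternative. Counts were summed per class and tumor and tested with edgeR 4.0.16 (TMM, glmQLFit, glmQLFTest, R 4.3.3) on genes whose RPKM averaged 1 or more over the classed wells, without covariates. A call is a Benjamini-Hochberg adjusted p under 0.05, and standard errors come from the quasi-F statistic. P-values and these standard errors rest on the spread between only 2 tumors, which edgeR moderates with the spread found over all genes tested. Same-numbered libraries come from the same animal and are paired, and their deviations from the class means correlated by 0.14 over the genes. The test was tried on simulated counts first.

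Named were the 7 genes, every listed gene that passed, *Plg*, *Lrp1* and *Mrc2*, and the 3 genes most like each of the 7, except for some genes that are not reported here. *Itgav*, *Itgb1*, *Serpina3g*, *Serpinb9* and *Serpinh1* were added after their values were seen, as calls that the block changes, and *Mmp9*, *Plgrkt*, *Vldlr*, *Thbd* and *Itgb3* as members of their groups that did not pass. Alternatives were the tumor block, DESeq2 1.42.0 and its size factors, ERCC totals, equal well totals, other filters on genes and wells, other class rules, each tumor alone, thinning (Python 3.11.15), other limits for a read and a pseudocount of 0.1.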

Additional observations from a re-analysis of the deposited data

Results flagged for a closer look

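*Plat* differed in direction between the tumors. Its log2 fold change, matrix over vascular, was 0.56 in tumor 1 and -0.11 in tumor 2, and the difference was not tested.

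The 55 unclassed wells entered no comparison but held reads of all 7 genes. *Serpinf1* averaged 560 and 639 RPKM there in tumors 1 and 2 and reached a log2(RPKM + 1) of 6 in 15 of 25 and 18 of 30 wells. *Serpine2* averaged 2590 and 382 RPKM, *Plat* 205 and 55.1 RPKM, *Plau* 36.2 and 2.33 RPKM, *Plaur* 10.4 and 5.74 RPKM, and *Serpina3n* 44.5 and 25.1 RPKM. *Vtn* averaged 23.7 RPKM in tumor 1 and had 3 reads in all in tumor 2. These wells are mixed. Summed developmental markers (*Scrg1*, *Sox10*, *Mia* and *Trf*) stood at 1944 and 3327 RPKM in them, against at most 151 RPKM in the vascular or matrix wells of a tumor, and summed epithelial markers at 584 and 197 RPKM. Median depth was 116336 and 115578 reads. The part of these cells, or of the depth, in the values of the 7 genes was not tested.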

How the results depend on the processing

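The 5 calls among the 7 genes held under every alternative fit at an adjusted p of 0.05. Scaling by ERCC totals turned *Serpine2* to 0.24, took *Plat* past the threshold at 0.90 and raised the genes higher in matrix wells from 1130 to 3328. DESeq2 raised those higher in vascular wells from 789 to 1274, and an adjusted p of 0.001 left 146 and 61. With either tumor alone there is no test, and log2 fold changes ran from 3.97 to 4.43 for *Serpinf1*, 3.71 to 4.45 for *Serpina3n*, 2.41 to 2.99 for *Plaur*, 2.41 to 2.89 for *Plau*, -0.11 to 0.56 for *Plat*, -0.68 to -0.20 for *Serpine2* and -6.77 to -6.19 for *Vtn*. The replicate block, with *Serpinf1* at 4.20 and *Vtn* at -6.46, changed no call among the 7. For shares (matrix minus vascular, percentage points), thinning gave -2.49 for *Serpine2*, 64.1 for *Serpinf1*, 50.5 for *Plau*, 34.0 for *Plaur* and -73.7 for *Vtn*, and a minimum of 5 reads gave -5.72, 70.6, 51.1, 36.5 and -74.2, where the values reported were 0, 48.1, 44.6, 44.9 and -63.7. At an RPKM of at least 1 *Plau* had 43.5. In single tumors these ran from -7.80 to 0.346 for *Plat*, 44.6 to 51.5 for *Serpinf1*, 51.0 to 63.6 for *Serpina3n* and -70.3 to -57.1 for *Vtn*. The differences in mean log2(RPKM + 1) depend on the pseudocount, because many wells are at 0. A pseudocount of 0.1 gave 9.60 for *Serpinf1*, 7.08 for *Serpina3n*, 4.70 for *Plau*, 3.82 for *Plaur* and -7.67 for *Vtn*, and the log2 of the mean gave 4.08, 3.86, 2.56 and 2.15 for the first 4 and 0.038 for *Plat*, where the values with a pseudocount of 1 were 7.92, 5.15, 3.20, 2.36 and -5.50, and -0.19 for *Plat*. *Plaur* also moved to 2.41 with classes from the panels or without cycling wells and to 2.43 without wells of other types. In single tumors these differences ran from -0.96 to 0.58 for *Plat*, -1.85 to -0.75 for *Serpine2*, 7.69 to 8.14 for *Serpinf1*, 4.91 to 5.38 for *Serpina3n*, 2.78 to 3.62 for *Plau*, 2.33 to 2.39 for *Plaur* and -6.12 to -4.88 for *Vtn*. Where not given by construction, the cause was not tested. With 1 plate per tumor, plate and tumor cannot be told apart.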
